A study of Mus musculus with 6 samples.

Results

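The inhibitory receptors of the Siglec, SIRP and CD200 type form a set of 10 genes, picked by symbol from the 24956 gene rows of the count table. They are the receptor genes Cd33, Siglece, Sirpa, Cd200r1, Pirb, Lilrb4a, Cd300a and Lair1, the ligand gene Cd47 and the phosphatase gene Ptpn6. RNA was read from microglia, the macrophages that reside in brain tissue, which had been isolated from 3XTg-AD mice by fluorescence-activated sorting. This transgenic strain is a model of Alzheimer's disease, and the mice of both arms were of it. At 7 months of age, over 4 weeks, the mice received a dose of 25 µg at intervals of 4 days. The treated arm received an anti-NK1.1 antibody, an agent that depletes natural killer (NK) cells, and the control arm received its isotype control. Each arm gave 3 bulk RNA-seq libraries, and the labels state neither how many animals went into a library nor which surface proteins defined the sorted cells.

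Inhibitory receptors hold back myeloid cells. On binding a ligand, most of them are phosphorylated on a short tyrosine motif of the cytoplasmic tail, the ITIM, by kinases of the Src family such as Lyn. The motif then recruits the phosphatases SHP-1 (Ptpn6), SHP-2 (Ptpn11) or SHIP-1 (Inpp5d), which oppose activating receptors that signal through Tyrobp or Fcer1g. In the brain, neurons display CD200, CD47 and sialic acid sugars to the microglial receptors CD200R, SIRPα and the Siglecs, and this contact is known for keeping microglia quiet and for sparing cells and synapses from phagocytosis. In human, CD33 is a risk gene of Alzheimer's disease.

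Promoter sequences are shown for 3 of the genes, the receptors Pirb and Siglece and the broadly expressed ligand Cd47. Each window runs from 250 bases before to 50 bases after the RefSeq transcript start (build GRCm38.p6, given 5′ to 3′ on the gene's strand). Pirb is the member with the smallest p below (chr7:3720333-3720632, minus strand), Siglece is among the members with the smallest difference (chr7:43660112-43660411, minus strand), and Cd47 is the ligand (chr16:49855404-49855703, plus strand). Capitals mark GAGGAA or its reverse complement TTCCTC, a purine-rich core that the myeloid factor PU.1 is known to bind.
Pirb: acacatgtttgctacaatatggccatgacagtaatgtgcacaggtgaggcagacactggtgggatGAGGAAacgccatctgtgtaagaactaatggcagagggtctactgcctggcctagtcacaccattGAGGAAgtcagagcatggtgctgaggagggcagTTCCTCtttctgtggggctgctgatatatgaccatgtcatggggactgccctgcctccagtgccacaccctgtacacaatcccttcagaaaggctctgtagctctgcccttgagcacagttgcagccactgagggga
Siglece: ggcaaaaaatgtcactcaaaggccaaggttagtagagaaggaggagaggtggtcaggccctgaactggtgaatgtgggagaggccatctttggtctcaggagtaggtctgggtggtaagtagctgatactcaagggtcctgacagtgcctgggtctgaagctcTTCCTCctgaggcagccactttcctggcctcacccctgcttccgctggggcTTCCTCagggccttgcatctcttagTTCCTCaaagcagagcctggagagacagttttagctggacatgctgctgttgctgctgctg
Cd47: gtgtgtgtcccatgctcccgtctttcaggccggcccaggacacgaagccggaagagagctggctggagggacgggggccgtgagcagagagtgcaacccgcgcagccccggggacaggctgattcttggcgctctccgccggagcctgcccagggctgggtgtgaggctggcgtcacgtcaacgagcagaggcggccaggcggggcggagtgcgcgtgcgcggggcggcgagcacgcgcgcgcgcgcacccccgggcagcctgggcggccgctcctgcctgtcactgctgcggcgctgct
Pirb and Siglece each held 3 matches, the most among the members, and Cd33, Lair1 and Cd300a held 1 each. Cd47 and Ptpn6 held none, and 28.3% of the 32851 promoter windows of this length in the table held at least 1. None of the 7 member windows held TATAAA on either strand, which 13.6% of all windows did, so the motifs did not overlap. The Cd47 window held 35 CpG dinucleotides and the Ptpn6 window 8. Cd33 held 4, Lair1 held 2, and Pirb, Siglece and Cd300a held 1 each. Pirb and Siglece therefore have like counts of the motif and of CpG, but their differences between the groups, given below, are unlike. A match is a stretch of letters and not a measured binding site.

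All 10 genes were expressed in every library, with 366 to 52057 counts, and all passed the filter on low counts. Counts over all genes totalled 26893620 to 31353937 per anti-NK1.1 library and 31884697 to 36098252 per isotype library. Levels are given as CPM, each gene's count over the library's TMM-scaled total. The sort carried microglial transcripts, and of 10 markers 6 had log2 changes below 0 and 4 above, with groups apart for P2ry12 and Olfml3. P2ry12 was at 2683 to 4384 CPM in the anti-NK1.1 group against 4557 to 5058 CPM in the isotype group, a log2 change of -0.58 ± 0.23, while Olfml3 had 0.33 ± 0.18 and Tmem119 0.38 ± 0.24. It also carried neutrophil transcripts, since the summed level of 12 neutrophil markers came to 32555 CPM (anti-NK1.1 1), 33183 CPM (anti-NK1.1 2) and 142013 CPM (anti-NK1.1 3), against 74477 to 102201 CPM in the isotype libraries. NK cell markers were scarce, and the 9 of them summed to 42.6 to 76.8 CPM in the anti-NK1.1 group and 91.1 to 133 CPM in the isotype group. Klrb1c, which encodes NK1.1, had 0, 0 and 13 counts in anti-NK1.1 libraries against 50, 45 and 80 in isotype libraries. Long transcripts were under-represented in 2 libraries. The Spearman correlation across genes between a library's deviation from the mean level and transcript length was -0.16, 0.26 and -0.31 in anti-NK1.1 libraries 1 to 3, against -0.02, 0.06 and 0.34 in isotype libraries 1 to 3.

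Cd200r1 and Pirb stood lowest relative to isotype among the 10 genes, at 0.532 and 0.592 times the isotype level, and they were the members whose groups did not overlap. Cd33, Siglece and Cd300a, at 0.948, 0.987 and 1.06 times, lay close to the isotype level, and the other 5 lay between 0.725 and 0.874 times. No member passed an adjusted p of 0.05 in edgeR's quasi-likelihood test over 14520 genes, where 0% of all genes passed, nor did any with DESeq2, where 0.574% passed, or limma-voom, where 0% passed. At an unadjusted p under 0.05, 2 of 10 members were lower (Cd200r1 and Pirb) and none was higher, beside 3.8% of all tested genes lower and 2.74% higher. Groups lay apart with anti-NK1.1 lower for 2 of 10 members, beside 7.59% of all tested genes, and for none with anti-NK1.1 higher, beside 7.73% (15.3% in either direction). Of the 10 log2 changes, 9 were below 0, beside 49.1% of all tested genes, and their median was -0.22 beside 0.01 over all tested genes. The members were measured in the same 6 libraries, so these 9 are not separate observations: isotype 3 held the highest level of 6 members, and anti-NK1.1 1 the lowest level of 5. In bulk samples, fewer cells of a type and less RNA per cell cannot be told apart.

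**Figure D1:**
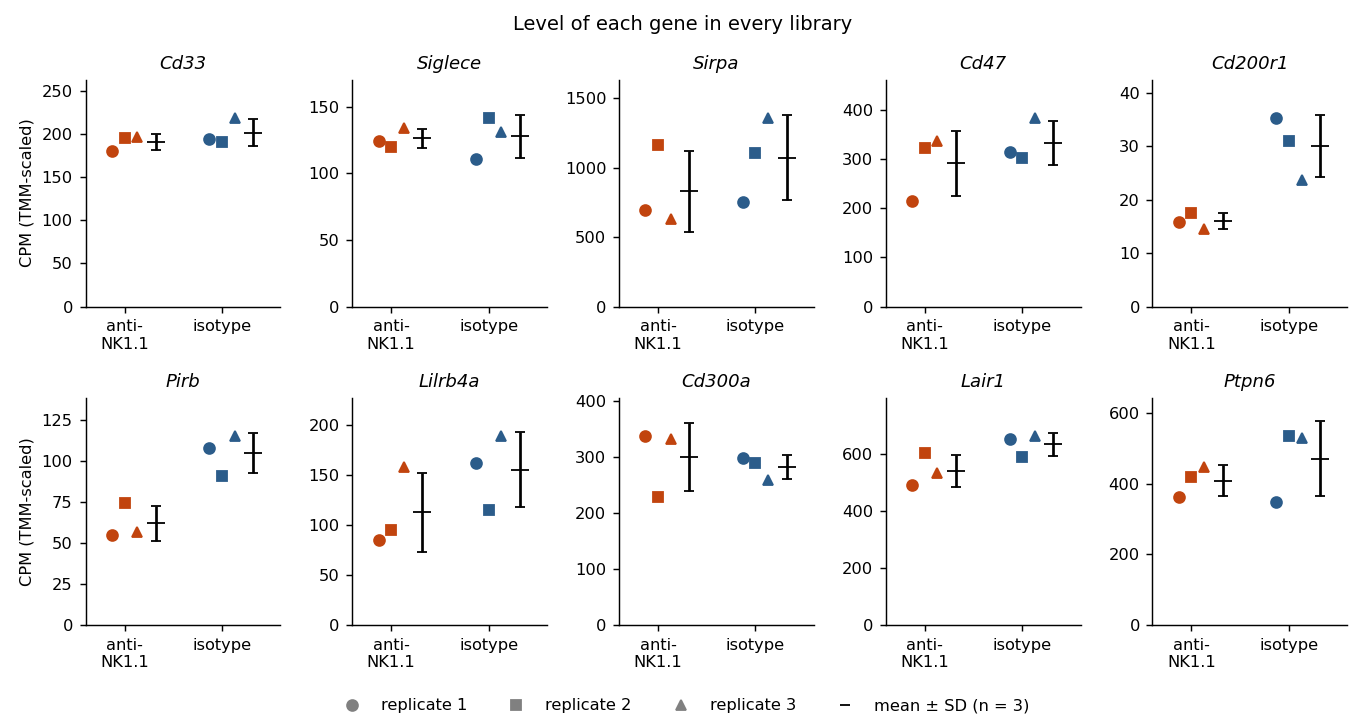
Level of each of the 10 genes in CPM (y axis, from 0) in the 3 anti-NK1.1 libraries (orange, left) and the 3 isotype libraries (blue, right), with the mean ± SD in black. Cd200r1 (14.6 to 17.6 against 23.8 to 35.4 CPM) and Pirb (55.0 to 74.4 against 91.2 to 115 CPM) are the genes whose groups lie apart.

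Cd200r1 encodes the receptor for CD200, a membrane protein of neurons, and it signals through Dok adaptors and not through an ITIM (chromosome 16, 44765736 to 44794978, plus strand, GRCm38). It had 15.8, 17.6 and 14.6 CPM in anti-NK1.1 libraries 1 to 3, against 35.4, 31.0 and 23.8 CPM in isotype libraries 1 to 3. The highest anti-NK1.1 library thus stood below the lowest isotype library, isotype 3. Group means were 16 ± 1.52 CPM (anti-NK1.1) and 30.1 ± 5.88 CPM (isotype) (SD, n = 3 each), a log2 change of -0.91 ± 0.33 (SE) with an edgeR adjusted p of 0.727. It was the scarcest member, with 366 to 603 counts in anti-NK1.1 and 910 to 1270 in isotype libraries. After each library was corrected for trends on transcript length and GC content, the log2 change was -0.57.

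The ligand of this receptor was barely present in the sorted cells. Cd200 had 3.61, 6.42 and 2.95 CPM in anti-NK1.1 libraries against 6.81, 3.97 and 6.79 CPM in isotype libraries, and the groups overlapped. The related Cd200r4, an activating type, ranged over 1.05 to 10.6 CPM in the anti-NK1.1 group and 1.49 to 8.98 CPM in the isotype group, and Cd200r2 had no count in any library. Of the windows of 75 bases, the read length, in the Cd200r1 transcript, 0.77% also occur in another gene, so few of its reads could come from a relative. The Dok adaptors Dok1 and Dok3 had log2 changes of 0.18 ± 0.24 and 0.24 ± 0.34, and their groups overlapped. Dok2 was scarce and uneven, at 4.33, 4.56 and 18.4 CPM in anti-NK1.1 libraries against 0, 9.83 and 13.2 CPM in isotype libraries. Its log2 change was 0.24 ± 1.35, with groups overlapping.

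Pirb encodes the paired immunoglobulin-like receptor B, which binds MHC class I and, on neurons, inhibitors of axon growth such as Nogo (chromosome 7, 3711409 to 3720391, minus strand). It had 55.0, 74.4 and 56.8 CPM in anti-NK1.1 libraries 1 to 3, against 108, 91.2 and 115 CPM in isotype libraries 1 to 3. Anti-NK1.1 2 was the highest of its group and still below each isotype library. Means were 62.0 ± 10.7 CPM (anti-NK1.1) and 105 ± 12.4 CPM (isotype) (SD, n = 3 each), a log2 change of -0.76 ± 0.24 and an edgeR adjusted p of 0.727. For both Pirb and Cd200r1 an exact two-sided permutation test of 3 against 3 libraries gave p = 0.1, the smallest this design allows. Any gene whose groups lie apart gets this value, as 15.3% of all tested genes do, so it adds nothing to the lack of overlap. Pirb was also the member most like Cd200r1 in its pattern over the 6 libraries, with a root mean square difference of 0.25 between their centred log2 levels. Both genes had groups apart and lower, so part of this likeness follows from that. Cd33 and Lair1 were nearer to each other, at 0.11, but they varied little. Their own root mean square spreads were 0.084 and 0.15, against 0.48 for Cd200r1 and 0.42 for Pirb. Within the isotype group the patterns of Cd200r1 and Pirb differed, since isotype 3 was the lowest for Cd200r1 and the highest for Pirb.

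Markers of other cells also differed between the libraries, and their part in the values of Cd200r1 and Pirb was not tested. All 12 neutrophil markers had log2 changes below 0, with a median of -0.32. Groups lay apart and lower for 2 of the 12, beside 7.59% of all tested genes. The neutrophil marker sum was lowest in anti-NK1.1 1 and 2 and highest in anti-NK1.1 3, and Cd200r1 and Pirb were below the isotype range in all 3 of these libraries. The microglial marker sum was 26028 to 31674 CPM in the anti-NK1.1 group and 28561 to 30796 CPM in the isotype group. Of 8 monocyte markers, 6 had log2 changes below 0 and 4 of these had groups apart and lower, among them Fn1, Ccr2 and F13a1, and the median over the 8 was -0.76. Their summed level was 1421, 1854 and 5620 CPM in anti-NK1.1 libraries 1 to 3, against 4931, 4352 and 4552 CPM in isotype libraries 1 to 3. Anti-NK1.1 3, the highest of the 6 in that sum, had Cd200r1 and Pirb below the isotype range as well. The sum does not follow each marker, since Fn1 was at 17.0 CPM in anti-NK1.1 3 against 60.0 to 151 CPM in isotype libraries. Ccr2 and F13a1 were also below their isotype ranges there. F13a1 is also on the list of 9 border macrophage markers, of which 2 had log2 changes below 0 and 7 above. Of these 9, 4 had groups apart and higher and 1 apart and lower, and the median was 1.07. Among 7 T cell markers, 6 were above 0 and 4 had groups apart and higher. All 8 oligodendrocyte markers were above 0 and summed to 758 to 883 CPM in the anti-NK1.1 group against 294 to 401 CPM in the isotype group. All 9 neuron markers were above 0 too, with sums of 192 to 576 CPM in the anti-NK1.1 group against 39.6 to 148 CPM in the isotype group. In anti-NK1.1 2, the library of its group with a positive length trend, Cd200r1 (17.6 CPM) and Pirb (74.4 CPM) were below the lowest isotype values (23.8 and 91.2 CPM), and a fit with that library alone in its group gave log2 changes of -0.76 and -0.49. With the correction for length and GC content, Pirb had a log2 change of -0.37. Pirb has a long transcript, 3824 nt beside a median of 2603 nt for all tested genes, and the part of the trend in its difference was not tested.

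**Figure D2:**
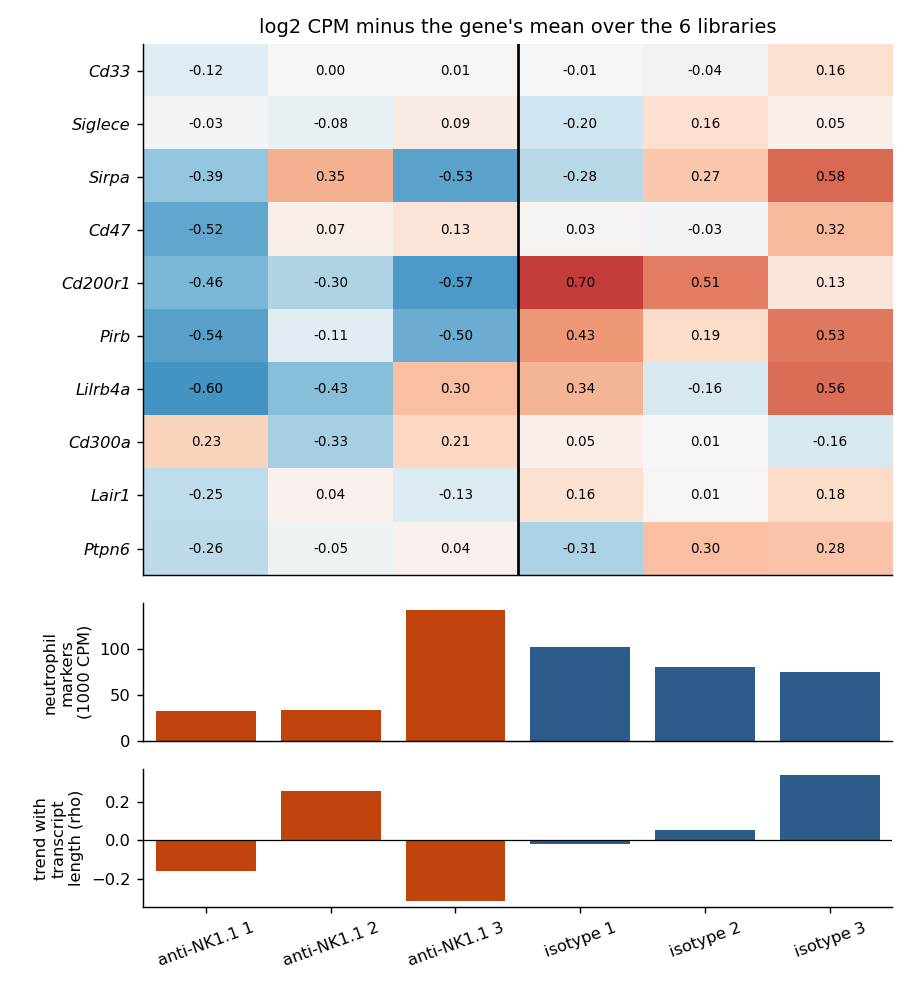
Top, log2 CPM of each gene minus its mean over the 6 libraries, with the 3 anti-NK1.1 libraries left of the line and the 3 isotype libraries right of it. Below, for the same libraries, the summed CPM of 12 neutrophil markers and the Spearman correlation of each library's deviations with transcript length. Cd200r1 and Pirb are below 0 in all 3 anti-NK1.1 libraries and above 0 in all 3 isotype libraries, whereas Sirpa is above 0 in anti-NK1.1 2, isotype 2 and isotype 3, the libraries with a positive length trend.

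Pirb lies in the leukocyte receptor cluster of chromosome 7 with activating relatives, and those of smallest p, Lilra5 and Lilra6, stood on opposite sides. Lilra6, listed in RefSeq under the older PirA name Pira3, had 10.1, 24.2 and 18.8 CPM in anti-NK1.1 libraries against 35.3, 36.9 and 46.0 CPM in isotype libraries, a log2 change of -1.15 ± 0.38. Lilra5, whose human ortholog is an activating receptor that signals through the Fc receptor gamma chain, had 62.2, 31.0 and 75.3 CPM in anti-NK1.1 libraries against 24.5, 27.6 and 23.0 CPM in isotype libraries, a log2 change of 1.17 ± 0.36. Every anti-NK1.1 library was below every isotype library for Lilra6 and above every one for Lilra5, and the edgeR adjusted p was 0.727 for each. Pira6 and Pira2 had log2 changes of 0.28 ± 0.53 and -1.01 ± 1.57, with groups overlapping. The ratio of Pirb to Lilra5, each per kilobase of transcript, was 0.487, 1.32 and 0.416 in anti-NK1.1 libraries 1 to 3, against 2.43, 1.82 and 2.77 in isotype libraries 1 to 3. With Pirb lower and Lilra5 higher, this ratio had to differ between the groups and adds nothing to those differences. The ratio of Pirb to Lilra6 was 2.99, 1.69 and 1.66 in anti-NK1.1 libraries, against 1.68, 1.36 and 1.38 in isotype libraries. In anti-NK1.1 2 Lilra5 was near the isotype level, and with that library alone in its group its log2 change was 0.32.

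Counts of this cluster are uncertain to different degrees. Of the 75-base windows of the Pirb transcript, 31.1% also occur in transcripts of other annotated genes. For genes of the table the share was 22.7%, chiefly Gm14548, which had no count in any library. How shared reads were assigned is not known, so that lack of counts does not show that Pirb was free of them. For Lilra6 the share with genes of the table was 12.1%, chiefly with Pira2, and for Lilra5 it was 0%.

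**Figure D3:**
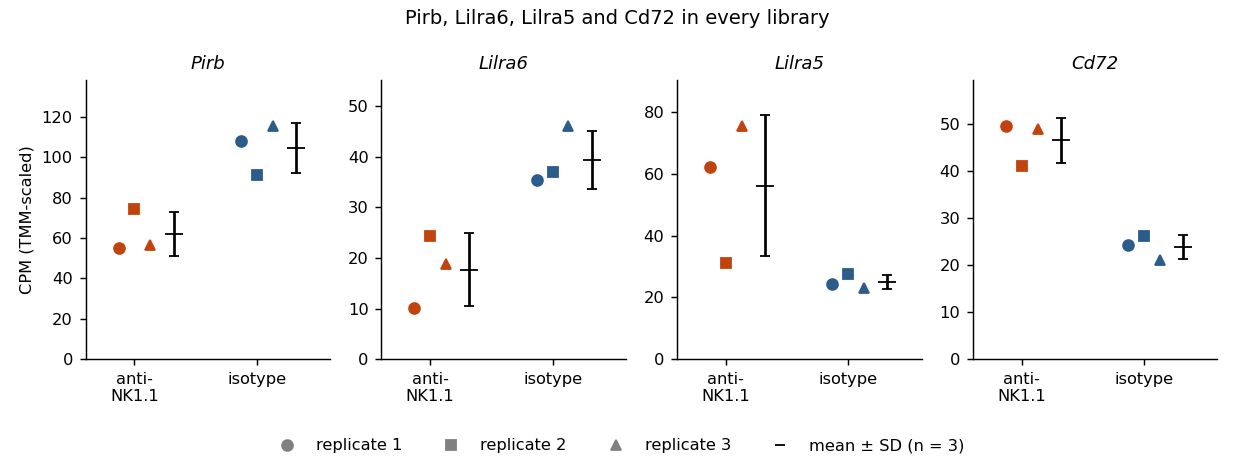
CPM of Pirb, Lilra6, Lilra5 and Cd72 (y axes, from 0) in the 3 anti-NK1.1 libraries (orange, left) and the 3 isotype libraries (blue, right), with the mean ± SD in black. Pirb and Lilra6 lie lower and Lilra5 and Cd72 higher in all anti-NK1.1 libraries, and anti-NK1.1 2 (square) is the library of its group nearest to isotype in each of the 4 genes.

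Lilrb4a encodes gp49B, an ITIM receptor of mast cells and macrophages (chromosome 10, 51490956 to 51496611, plus strand). It had 84.7, 95.4 and 158 CPM in anti-NK1.1 libraries against 162, 115 and 189 CPM in isotype libraries (log2 change -0.46 ± 0.30, edgeR adjusted p of 0.751). The groups overlapped through anti-NK1.1 3, the library richest in neutrophil markers, and without that library the log2 change was -0.79. Its neighbour Lilr4b, also called gp49A and 4.25 kb away, was looked up after the values were seen: it had 28.2, 31.2 and 50.1 CPM in anti-NK1.1 libraries against 62.1, 57.5 and 67.2 CPM in isotype libraries, with groups apart and a log2 change of -0.77 ± 0.29 at an adjusted p of 0.727 by edgeR. The genes share sequence, since 19.7% of the 75-base windows of Lilrb4a occur in Lilr4b, and all of them occur in Gm49339, an annotated gene with no row in the table, so the counts cannot be fully separated.

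Lair1 encodes a receptor for collagens and for the complement protein C1q (chromosome 7, 4003402 to 4063204, minus strand). It had 491, 602 and 534 CPM in anti-NK1.1 libraries against 652, 589 and 664 CPM in isotype libraries (log2 change -0.23 ± 0.19, edgeR adjusted p of 0.791). Anti-NK1.1 2 lay between the isotype values, and with the length and GC correction the log2 change was 0.14. The C1q chains that Lair1 binds had values above 0. C1qc, C1qa and C1qb had log2 changes of 0.66 ± 0.21, 0.53 ± 0.22 and 0.50 ± 0.21, and for C1qc and C1qb the groups lay apart. These transcripts are short, and with the length and GC correction C1qc had 0.22 and C1qa -0.01. The collagen genes Col1a1 and Col1a2 were at or below 23.8 CPM in all libraries.

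The Siglecs among the members, Cd33 and Siglece, had the smallest log2 changes of the set. Cd33 (chromosome 7, 43524216 to 43544428, minus strand), which binds sialic acid and whose mouse protein has a tail unlike the human one, had 180, 195 and 197 CPM in anti-NK1.1 libraries against 194, 191 and 219 CPM in isotype libraries. The ranges overlapped, and the log2 change was -0.08 ± 0.20 (edgeR adjusted p = 0.933). Siglece, the main ITIM Siglec of mouse microglia and neutrophils, lies 107 kb from Cd33 in the same cluster (43651070 to 43660161, minus strand). It had 124, 120 and 134 CPM in anti-NK1.1 libraries against 111, 142 and 131 CPM in isotype libraries (log2 change -0.02 ± 0.21, edgeR adjusted p of 0.986). All anti-NK1.1 values lay inside the isotype range, and the sign of the difference turned under other scalings, with 0.01 under RLE and 0.06 under upper-quartile factors. Siglech, a Siglec of microglia that signals through Tyrobp, was more abundant than either, at 1386, 1638 and 1208 CPM in anti-NK1.1 libraries against 1528, 1490 and 1522 CPM in isotype libraries (log2 change -0.10 ± 0.19). At the spread seen here, the SE of about 0.2 leaves room for modest differences of these 3 genes in either direction. Outside the set, the scarce Siglecg had groups apart, at 7.19, 5.14 and 0.44 CPM in anti-NK1.1 libraries against 7.95, 9.55 and 14.3 CPM in isotype libraries. Its log2 change was -1.31 ± 0.84 (edgeR adjusted p = 0.750). Siglecf and Cd22 had 0.02 ± 0.32 and -0.16 ± 0.54, with groups overlapping.

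The groups overlapped for both genes of the SIRP pair. Sirpa, the receptor that reads CD47 on other cells (chromosome 2, 129592835 to 129632228, plus strand), had 696, 1166 and 631 CPM in anti-NK1.1 libraries against 751, 1102 and 1360.0 CPM in isotype libraries. Its log2 change was -0.37 ± 0.30 (edgeR adjusted p = 0.784), and with anti-NK1.1 2 alone in its group it was 0.13. Anti-NK1.1 1 and 3 were below all isotype libraries and anti-NK1.1 2 was above 2 of them, which is the order of the length trend, and the transcript is 3644 nt long. The part of that trend in the difference was not tested, although the length and GC correction left a log2 change of -0.20. Cd47, the signal against phagocytosis that SIRPα binds (chromosome 16, 49800533 to 49915010, plus strand), had 215, 323 and 337 CPM in anti-NK1.1 libraries against 315, 302 and 385 CPM in isotype libraries. The log2 change was -0.19 ± 0.24 (edgeR adjusted p = 0.854), and without anti-NK1.1 1, the lowest library, it was -0.02.

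Cd300a, an ITIM receptor for phosphatidylserine and phosphatidylethanolamine on dying cells (chromosome 11, 114890041 to 114904654, plus strand), was the only member above its isotype level. It had 338, 229 and 333 CPM in anti-NK1.1 libraries against 299, 290 and 259 CPM in isotype libraries (log2 change 0.09 ± 0.22, edgeR adjusted p of 0.934). Anti-NK1.1 2 was the lowest of the 6 libraries and the other 2 were the highest, so the direction turned to -0.30 with anti-NK1.1 2 alone in its group. With the length and GC correction the log2 change was 0.59. The neighbouring Cd300c2, an activating relative, had 525, 333 and 496 CPM in anti-NK1.1 against 377, 352 and 317 CPM in isotype libraries, and a log2 change of 0.37 ± 0.23. As for Cd300a, anti-NK1.1 1 and 3 were its highest libraries.

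Ptpn6 encodes SHP-1, the phosphatase on which most of these receptors draw (chromosome 6, 124720707 to 124738714, minus strand). It had 362, 418 and 446 CPM in anti-NK1.1 libraries against 349, 535 and 528 CPM in isotype libraries (log2 change -0.20 ± 0.23, edgeR adjusted p of 0.847). The groups overlapped through isotype 1, the lowest of the 6. The other phosphatases were less abundant per length, and their log2 changes were -0.68 ± 0.39 for Ptpn11, with groups apart, and -0.81 ± 0.38 for Inpp5d, with groups overlapping. Without isotype 3 these were -0.44 and -0.40, and Inpp5d was -1.251 without anti-NK1.1 2. Both are long transcripts and neither passed (edgeR adjusted p = 0.743 for each). With the length and GC correction Ptpn11 had -0.37 and Inpp5d -0.61. With anti-NK1.1 2 alone in its group they had -0.34 and -0.19.

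Levels of the genes can be compared only per kilobase, and their order depends in part on the transcript model. With the median length of the coding transcripts, Sirpa, Cd47, Lair1 and Ptpn6 led in both groups, at 184 to 230 CPM per kb in the anti-NK1.1 group and 212 to 294 CPM per kb in isotype libraries, and ranges of neighbours in this order overlapped. Ptpn6 stood apart from the next gene in each group. Cd33, Lilrb4a, Siglece and Cd300a followed at 64.7 to 97.3 CPM per kb in anti-NK1.1 and 61.0 to 121 CPM per kb in isotype libraries. Pirb, with 16.2 and 27.4 CPM per kb in anti-NK1.1 and isotype libraries, and Cd200r1, with 8.46 and 15.9 CPM per kb, came last and apart from each other and from the rest. With the longest transcript in place of the median, Sirpa was first in both groups, where with the median it was second to Cd47 in the anti-NK1.1 group. Pirb and Cd200r1 were the last in both groups with either length, while Cd47 and Cd33, whose longest transcripts are 5250 and 5728 nt, moved to rank 7 and 8 in the anti-NK1.1 group and 6 and 8 in the isotype group.

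**Figure D4:**
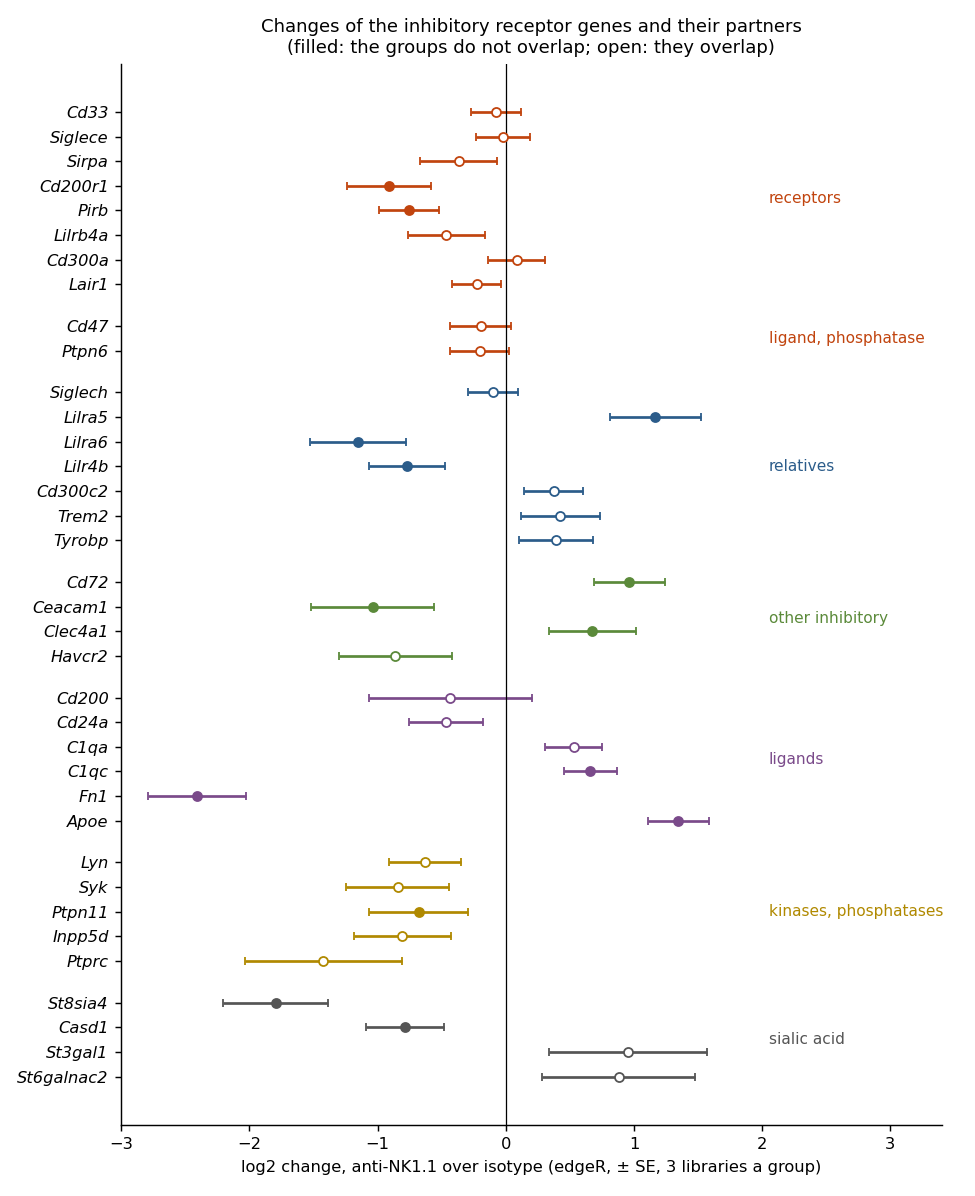
Log2 change of anti-NK1.1 over isotype with its SE from edgeR (x axis) for the 10 genes (orange) and for related genes by role, with filled points where the groups do not overlap. Cd200r1 (-0.91) and Pirb (-0.76) are the filled points among the 10, and C1qc (0.66), Cd72 (0.96) and Lilra5 (1.17) lie on the other side of 0.

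The rest of the inhibitory network showed no common direction. Among 21 tested genes of other inhibitory receptors, 9 were lower and 12 higher, with a median log2 change of 0.02, and 0 passed with edgeR, where 1 (Cd72) had an unadjusted p under 0.05. Cd72, an ITIM receptor best known from B cells, had 49.4, 41.0 and 48.8 CPM in anti-NK1.1 libraries against 24.3, 26.2 and 20.98 CPM in isotype libraries (log2 change 0.96 ± 0.28, edgeR adjusted p of 0.727). Its lowest anti-NK1.1 library was above its highest isotype library. The 7 B cell markers summed to 128, 92.2 and 127 CPM in anti-NK1.1 libraries against 94.4, 92.4 and 54.1 CPM in isotype libraries, 4 of them with a higher mean in anti-NK1.1 and none at 0 in any library. Their part in the Cd72 difference was not tested. Ceacam1, an ITIM receptor of leukocytes, and Clec4a1, a C-type lectin, had log2 changes of -1.04 ± 0.48 and 0.68 ± 0.34 with groups apart. For Ceacam1, anti-NK1.1 2 (93.7 CPM) was next to the lowest isotype library (94.8 CPM), and the log2 change was -1.75 without it and -0.63 without anti-NK1.1 1. For Clec4a1 it was 0.31 without anti-NK1.1 3. Havcr2, which encodes the checkpoint receptor TIM-3, had -0.86 ± 0.44 with groups overlapping, -1.67 without anti-NK1.1 2, -0.56 without anti-NK1.1 1, and 0.03 with anti-NK1.1 2 alone in its group.

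Among 21 tested activating relatives and adaptors, 9 were lower and 12 higher, with a median log2 change of 0.22. Trem2, which recognises lipids, and its adaptor Tyrobp had 0.43 ± 0.31 and 0.39 ± 0.29, and both were -0.02 with the length and GC correction. They were 0.16 and 0.23 without anti-NK1.1 3, without isotype 3 they were 0.20 and 0.25, and without anti-NK1.1 2 they were 0.66 and 0.65. Tyrobp was 0.24 without anti-NK1.1 1. Pilrb1, an activating receptor of the paired type 2 family, had 0.61 ± 0.39, and 0.14 without anti-NK1.1 3. Of 18 tested ligand genes, 8 were lower and 10 higher. Fn1, the fibronectin gene, had a log2 change of -2.41 ± 0.38 and Apoe, a lipid carrier, of 1.35 ± 0.24, and both passed DESeq2's threshold (adjusted p = 4.68e-06 and 0.00018) but not edgeR's (0.366 and 0.403). Fn1 is also on the list of monocyte markers, where Ccr2 (-1.68 ± 0.43) and F13a1 (-1.70 ± 0.52) had groups apart and lower as well. F13a1 is on the list of border macrophage markers too. Cd24a, the ligand of Siglec-G, had -0.47 ± 0.29, with -0.27 without anti-NK1.1 2 and -0.85 without anti-NK1.1 3.

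Of 23 genes of kinases, phosphatases and adaptors, 14 were lower and 9 higher, with a median log2 change of -0.17. Those with the smallest p had overlapping groups: Ptprc, the phosphatase CD45, with -1.42 ± 0.61, the ITIM kinase Lyn with -0.63 ± 0.28 and the ITAM kinase Syk with -0.84 ± 0.40. Without anti-NK1.1 2 they were -2.68, -0.99 and -1.36, and Syk was -0.53 without isotype 3. With anti-NK1.1 2 alone in its group, Ptprc, Lyn and Syk had -0.31, -0.09 and -0.16. With the length and GC correction they had -1.04, -0.25 and -0.66. In anti-NK1.1 2, Lyn was at 485 CPM, inside the isotype range of 479 to 567 CPM, while anti-NK1.1 1 and 3 had 235 and 287 CPM. Of 21 tested genes of sialic acid metabolism, 13 were lower and 8 higher, with a median of -0.05. St8sia4, which builds polysialic acid, had -1.80 ± 0.41 and was the gene of this list that passed with DESeq2 (adjusted p = 0.0201). Casd1, which O-acetylates sialic acid, had -0.79 ± 0.30, and the sialyltransferases St3gal1 and St6galnac2 had 0.95 ± 0.61 and 0.88 ± 0.60. Without anti-NK1.1 3 these were 0.63 and 0.16, and St6galnac2 was 0.51 without isotype 3 and 1.36 without isotype 2. St8sia4 has a long transcript, and with the length and GC correction its log2 change was -0.92.

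**Figure D5:**
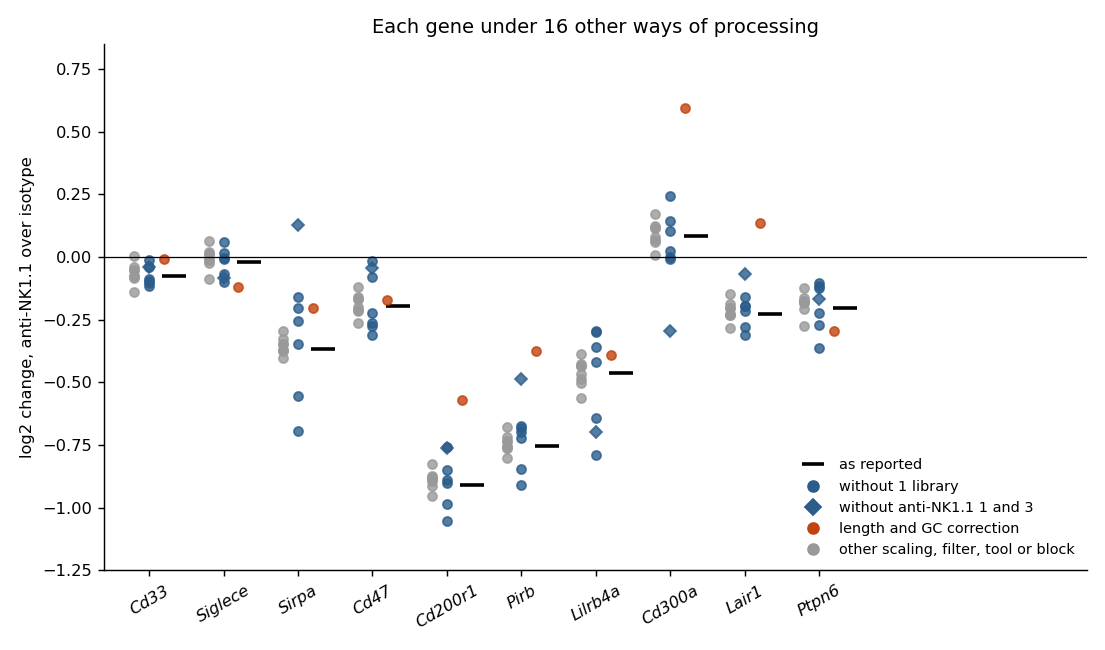
Log2 change of anti-NK1.1 over isotype (y axis) of each of the 10 genes as reported (black bar) and under 16 other ways of processing (points). Cd200r1 (-1.06 to -0.57) and Pirb (-0.91 to -0.37) stay below 0 in all 16, as do Lilrb4a, Cd47 and Ptpn6, while Siglece, Cd33, Sirpa, Cd300a and Lair1 cross 0 in at least 1.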

How the data were processed

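Sorted microglia of 6 samples, 3 a group, were sequenced as 75 bp single-end reads from SMART-seq v4 cDNA and Nextera XT libraries, per the labels' protocols. The submitters' processing notes name build mm10, STAR 2.5.3a, DESeq2 1.1, Cufflinks 2.0, bcl2fastq 2.20.0.422 and FastQC 1.0.0. Which program counted the reads, on which annotation and with which strand setting, is not given in the sources used here. Although called normalized, the deposited values are raw counts: all are whole, totals differ between samples, and there are rows for reads in no feature (53.3% to 57.4% of reads) and ambiguous reads (0.293% to 0.366%), which stayed out of library sizes and tests. Another 26 rows with a calendar date as gene name were left out.

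Counts were filtered with filterByExpr (14520 genes), scaled with TMM factors and tested two-sided with edgeR 4.0.16 in R 4.3.3 (quasi-likelihood F-test on the group, no covariate); p-values were Benjamini-Hochberg adjusted across the 14520 genes and called below 0.05. The SE of a log2 change is its size divided by the square root of F. P-values measure the spread between these libraries, which may be technical. Alternatives were DESeq2 1.42.0, limma-voom (limma 3.58.1), other scalings, filters, a replicate block, a length and GC correction (smooth terms fitted per library with mgcv 1.9.3), and leaving out libraries. The design had allowed for normalized values, and the count test it also named was used. The biological coefficient of variation (common value) was 0.640. In simulated counts of this comparison (14004 to 14053 genes tested), edgeR recovered 0.5%, 58.5% and 89% of 200 genes changed by 1, 2 and 4 on the log2 scale. A floor of 3 counts corresponds to 0.0831 to 0.112 CPM before TMM factors, and it covers counting error only.

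The members and the gene lists were chosen with earlier results of these data known. Named genes are all members, the 4 (at most) tested genes with the lowest p in each of 5 related lists, and Cd200, Cd24a, Ptpn11, Inpp5d, Lyn, Tyrobp, Siglech and Trem2. P2ry12 and Tmem119 were named in advance as marks of microglia, and Klrb1c and Ncr1 as marks of NK cells. Ncr1 enters here only through the sum of NK cell markers. Any other gene was chosen after its values were seen. For each member, the most similar other member over the 6 libraries was also taken. Coordinates, lengths and GC content (median over coding transcripts) are from GENCODE release M21 on GRCm38 (mm10) by symbol. Lengths were found for 98.3% of gene rows. Promoter windows are from RefSeq and were found for 7 of the 10 members. Sirpa, Cd200r1 and Lilrb4a were not among them. No strand is marked by these kits, so reads of overlapping antisense genes cannot be told apart.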

Additional observations from a re-analysis of the deposited data

How the results depend on the processing

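Of 160 values of the 10 genes under 16 alternatives, 149 kept their direction and their side of the threshold, and no member passed the threshold in any. The scaling by plain library totals, and the counts of members lying apart, were added after seeing the data. The count of genes past the threshold, 0 with edgeR, was 83 with DESeq2 (48 higher, 35 lower) and ranged from 0 to 129 over the fits without 1 library, with 129 (12 higher, 117 lower) without anti-NK1.1 2. The cause was not tested. Siglece turned to 0.0100 with RLE factors, 0.00999 with DESeq2, 0.0636 with upper-quartile factors and 0.0201 among genes of a mean CPM of at least 5, and ranged from -0.0978 to 0.0617 over the fits without 1 library, above 0 without anti-NK1.1 2 (0.0145) and without isotype 2. Cd33 turned to 0.0026 with upper-quartile factors, Lair1 to 0.14 with the length and GC correction, and Cd300a ranged from -0.0091 (without anti-NK1.1 1) to 0.244 over the fits without 1 library. With anti-NK1.1 2 alone in its group, a fit that takes that library to vary like the isotype libraries, Sirpa turned to 0.13, Cd300a to -0.30, Havcr2 to 0.0312, Cd300c2 to -0.0577, Pilrb1 to -0.26, St3gal1 to -0.80, Cd200 to 0.14, Tyrobp to -0.33, Siglech to 0.12 and Trem2 to -0.18. With the length and GC correction, C1qa, Tyrobp and Trem2 turned to -0.0063, -0.0206 and -0.0247. Ptprc and Havcr2 passed the threshold without anti-NK1.1 2 (edgeR adjusted p = 0.0405 and 0.0412), with log2 changes of -2.68 and -1.67, and Fn1 and Apoe passed there too (0.0476 and 0.0468).

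The number of members lying apart and lower was 2 under every scaling tried and 2 to 4 without 1 library: 4 without anti-NK1.1 2 (Sirpa, Cd200r1, Pirb and Lair1) and 4 without isotype 2 (Cd200r1, Pirb, Lilrb4a and Lair1). Cd200r1 and Pirb were among them in each of these settings. Without 1 library this largely follows from their groups lying apart in all 6 libraries, so mainly the scalings could have changed it. The count was not made with the length and GC correction. Same-numbered libraries of the groups did not deviate together (correlations of 0.05, 0.03 and -0.0038). This shows no pairing by number but cannot exclude one, because single libraries also differed widely in their length trends. With a replicate block 0 genes passed and the log2 changes of Cd200r1 and Pirb were -0.89 and -0.76. The members had at least 366 counts in each library, and the effect of depth on them was not tested. Without 1 library, the log2 change ranged from -0.69 to -0.16 for Sirpa (without anti-NK1.1 2 and without isotype 3), -0.79 to -0.30 for Lilrb4a (without anti-NK1.1 3 and without anti-NK1.1 1), -0.31 to -0.02 for Cd47 (without anti-NK1.1 3 and without anti-NK1.1 1), and -0.36 to -0.10 for Ptpn6 (without isotype 1 and without isotype 2).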
